A study of Mus musculus with 20 samples.

Results

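The inhibitory receptors of follicular T cells were examined as 8 genes, Pdcd1, Lag3, Tigit, Havcr2, Cd160, Btla, Cd200 and Cd96, out of 13798 genes measured. They were taken by name, and all 8 were present. The cells were splenic T cells sorted as CD4+CXCR5+PD1+ from 10 irradiated C57BL/6 bone marrow chimeras, with 28192 cells in all and 1 gene expression library and 1 T cell receptor (TCR) library per mouse. In the 5 WT chimeras (mice 11, 12, 14, 23 and 36; 14965 cells), congenic WT marrow reconstituted the recipient and NP-OVA in alum was given at week 6. The study's methods also describe a booster 4 weeks after that injection, which the labels of these samples do not mention, so whether these mice were boosted is not known here. In the 5 564Igi chimeras (mice 13, 17, 21, 24 and 34; 13227 cells), the WT marrow was mixed with marrow from 564Igi mice, whose B cells carry knocked-in heavy and light chains of an autoreactive antibody, and no immunization was given. All mice were irradiated and were taken at week 10 according to the labels, and the sorted T cells were CD45.2+ and CD45.1-. The groups thus differed in both the autoreactive B cell clone and the immunization, which cannot be told apart, and the irradiated host and the WT marrow were common to both. The sort gate used PD-1 protein, the product of Pdcd1, so cells with little of it were removed before sequencing.

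Inhibitory receptors restrain T cells that have met antigen. PD-1, encoded by Pdcd1, binds PD-L1 and PD-L2 and recruits the phosphatase SHP-2, and it is a hallmark of T follicular helper (Tfh) cells, which sit among B cells in the germinal centre. LAG-3 is a relative of CD4 that binds MHC class II. TIGIT and CD96 bind CD155, the ligand that they share with the activating receptor CD226, while BTLA and CD160 bind HVEM, encoded by Tnfrsf14. TIM-3, encoded by Havcr2, is found on effector T cells, and CD200 is itself a ligand that passes an inhibitory signal to cells with the CD200 receptor. T follicular regulatory (Tfr) cells carry the regulator Foxp3 and hold back the same reaction.

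The 8 genes lie on 5 chromosomes of GRCm38 (GENCODE vM21). Tigit (chr16:43648867-43664146), Btla (chr16:45224315-45257670), Cd200 (chr16:45382135-45409053) and Cd96 (chr16:46035657-46120251) all lie within 2.47 Mb, with Btla and Cd200 124 kb apart. Lag3 (chr6:124904361-124911705) lies 16.1 kb from Cd4. Pdcd1 (chr1:94038305-94052553), Havcr2 (chr11:46454935-46481255) and Cd160 (chr3:96798763-96829351) lie alone. Values below are counts over whole genes, and no exon or isoform was resolved.

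A clone was taken as the cells of 1 mouse that list the same CDR3 sequences, the part of each TCR chain that contacts peptide. The CDR3 of the beta chain is printed below, 5′ to 3′, for the largest clone among the activated Tfh cells of each mouse, because the comparison of sister cells turns on such clones. The sequences are those listed in the deposited TCR table, with the V genes listed for both chains.
Mouse 11 (WT), TRAV4-4-DV10 and TRBV20: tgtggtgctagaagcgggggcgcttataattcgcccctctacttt
Mouse 12 (WT), TRAV4D-4 and TRBV13-1: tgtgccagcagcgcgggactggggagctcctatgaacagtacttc
Mouse 14 (WT), TRAV3D-3 and TRBV29: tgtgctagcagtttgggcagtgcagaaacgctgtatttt
Mouse 23 (WT), TRAV8-1 and TRBV10: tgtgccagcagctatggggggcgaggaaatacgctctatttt
Mouse 36 (WT), TRAV14-2 and TRBV1: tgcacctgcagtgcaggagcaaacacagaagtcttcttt
Mouse 13 (564Igi), TRAV21-DV12 and TRBV23: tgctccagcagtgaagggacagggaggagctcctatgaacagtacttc
Mouse 17 (564Igi), TRAV8D-1 and TRBV1: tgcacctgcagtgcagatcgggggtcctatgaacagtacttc
Mouse 21 (564Igi), TRAV14-1 and TRBV16: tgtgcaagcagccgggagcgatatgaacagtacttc
Mouse 24 (564Igi), TRAV4D-4 and TRBV13-1: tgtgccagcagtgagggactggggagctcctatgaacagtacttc
Mouse 34 (564Igi), TRAV13-4-DV7 and TRBV5: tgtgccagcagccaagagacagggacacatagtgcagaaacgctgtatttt
No 2 of these sequences were identical, and their lengths ran from 36 to 51 bases.

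Depth was 7884205 to 15241983 UMIs per mouse in WT and 3424280 to 14827300 in 564Igi chimeras, with a median per cell of 2937.5 to 3823.5 and 2728 to 4375.5 UMIs. The T cell marker Cd3e was found in 99.4% of cells, Cd4 in 67.3%, Cxcr5 in 40.7%, Icos in 65.0% and Bcl6 in 10.9%, as means of mice. Foxp3 was found in 56.0% of Tfr cells and 7.20% of activated Tfh cells. Markers of other cells were low, with Cd79a in 0.3% and Lyz2 in 0.2% of cells and Cd8b1 in 4.6%. The libraries shared 491 cell barcodes over 988 cells. RNA and TCR were joined for 21405 cells, in 15635 clones over all cells with a TCR.

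The members fell into 3 levels. Over all cells, Pdcd1 was found in 75.6% ± 6.4 (SD, n = 10 mice), Tigit in 69.8% ± 5.33 and Lag3 in 48.8% ± 12.1 of cells. Cd200 (30.7% ± 4.08), Btla (22.7% ± 1.77), Cd96 (14.4% ± 6.00) and Cd160 (10.7% ± 2.41) formed a middle group. Havcr2 was found in 202 cells, 0.753% ± 0.373 of a mouse's cells. A cell held transcripts of 2.73 ± 0.174 of the 8 members on average, and 2.55% of cells held none. Most cells with Btla, Cd96, Cd160 or Havcr2 had 1 corrected count, in 80.9%, 84.8%, 76.3% and 77.2% of them, near the limit of detection. Reads of free RNA were not removed.

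The 6 clusters that the authors named from the same cells differed in which members they carried, and these levels are given as a description with no test. Pdcd1 was highest in Sostdc1 Tfh cells, a cluster led by the secreted protein Sostdc1, where it was found in 89.8% ± 2.93 of cells. Its mean log2 level there was above that of activated Tfh cells in 10 of 10 mice, by 0.51. Activated Tfh and Tfr cells did not separate, with 75.8% ± 7.75 and 74.3% ± 5.00 of cells and the activated cells above in 7 of 10 mice. Central memory Tfh cells, marked by Ccr7, had the least, in 53.0% ± 9.56 of cells.

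Tigit was highest in Tfr cells but common in most other clusters. It was found in 84.5% ± 3.27 of Tfr cells and 58.4% ± 6.72 of activated Tfh cells, and the mean log2 level was higher in Tfr cells in 10 of 10 mice, by 0.76. Effector Tfh cells came next with 74.4% ± 12.7 and were below the Tfr cells in 8 of 10 mice. Interferon stimulated and Sostdc1 Tfh cells followed with 69.3% ± 9.34 and 68.2% ± 7.84. Central memory Tfh cells stood lowest at 25.3% ± 12.8, below the activated cells in 8 of 8 mice with enough cells. Cd96, which shares the ligand CD155, was also higher in Tfr than in activated Tfh cells in 10 of 10 mice (17.8% ± 5.90 against 11.9% ± 6.29 of cells). Central memory Tfh cells had Cd96 in 19.5% ± 8.15, effector cells in 16.4% ± 5.91 and interferon stimulated cells in 16.1% ± 9.30. Cd96 was lowest in Sostdc1 Tfh cells, in 8.96% ± 5.29.

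Lag3 and Havcr2 both peaked in effector Tfh cells, marked by the chemokine Ccl5 and the granule proteins Gzmk and Nkg7. Lag3 was found in 70.4% ± 13 of effector cells and was above Sostdc1 Tfh cells (57.7% ± 11) in 9 of 10 mice. Sostdc1, interferon stimulated, activated Tfh and Tfr cells could not be put in order for Lag3, since each was above the next in only 5 to 7 mice. Havcr2 was found in 83 of 682 effector cells and in 65 of 11953 activated Tfh cells, and the effector level was above in 10 of 10 mice. No central memory cell had Havcr2 (0 of 725).

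Btla and Cd200 were lower in Tfr than in activated Tfh cells. Btla was found in 18.4% ± 2.06 of Tfr and 25.4% ± 2.23 of activated Tfh cells, and Cd200 in 20.01% ± 2.29 and 36.7% ± 6.15. For both genes the Tfr level was below the activated level in 10 of 10 mice, by 0.08 and 0.24 on the log2 scale. Btla was lower still in central memory (15.2% ± 4.12) and effector Tfh cells (13.2% ± 5.39). Cd200 in effector (22.2% ± 6.49) and interferon stimulated Tfh cells (23.5% ± 5.62) lay near its share in Tfr cells. Both genes peaked in Sostdc1 Tfh cells, at 33.5% ± 5.17 and 49.2% ± 10.8. Cd160 also peaked there, at 15.97% ± 4.39, above the effector cells in 8 of 10 mice. The Sostdc1 cells thus carried 3.23 members per cell, the central memory cells 1.89.

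**Figure D1:**
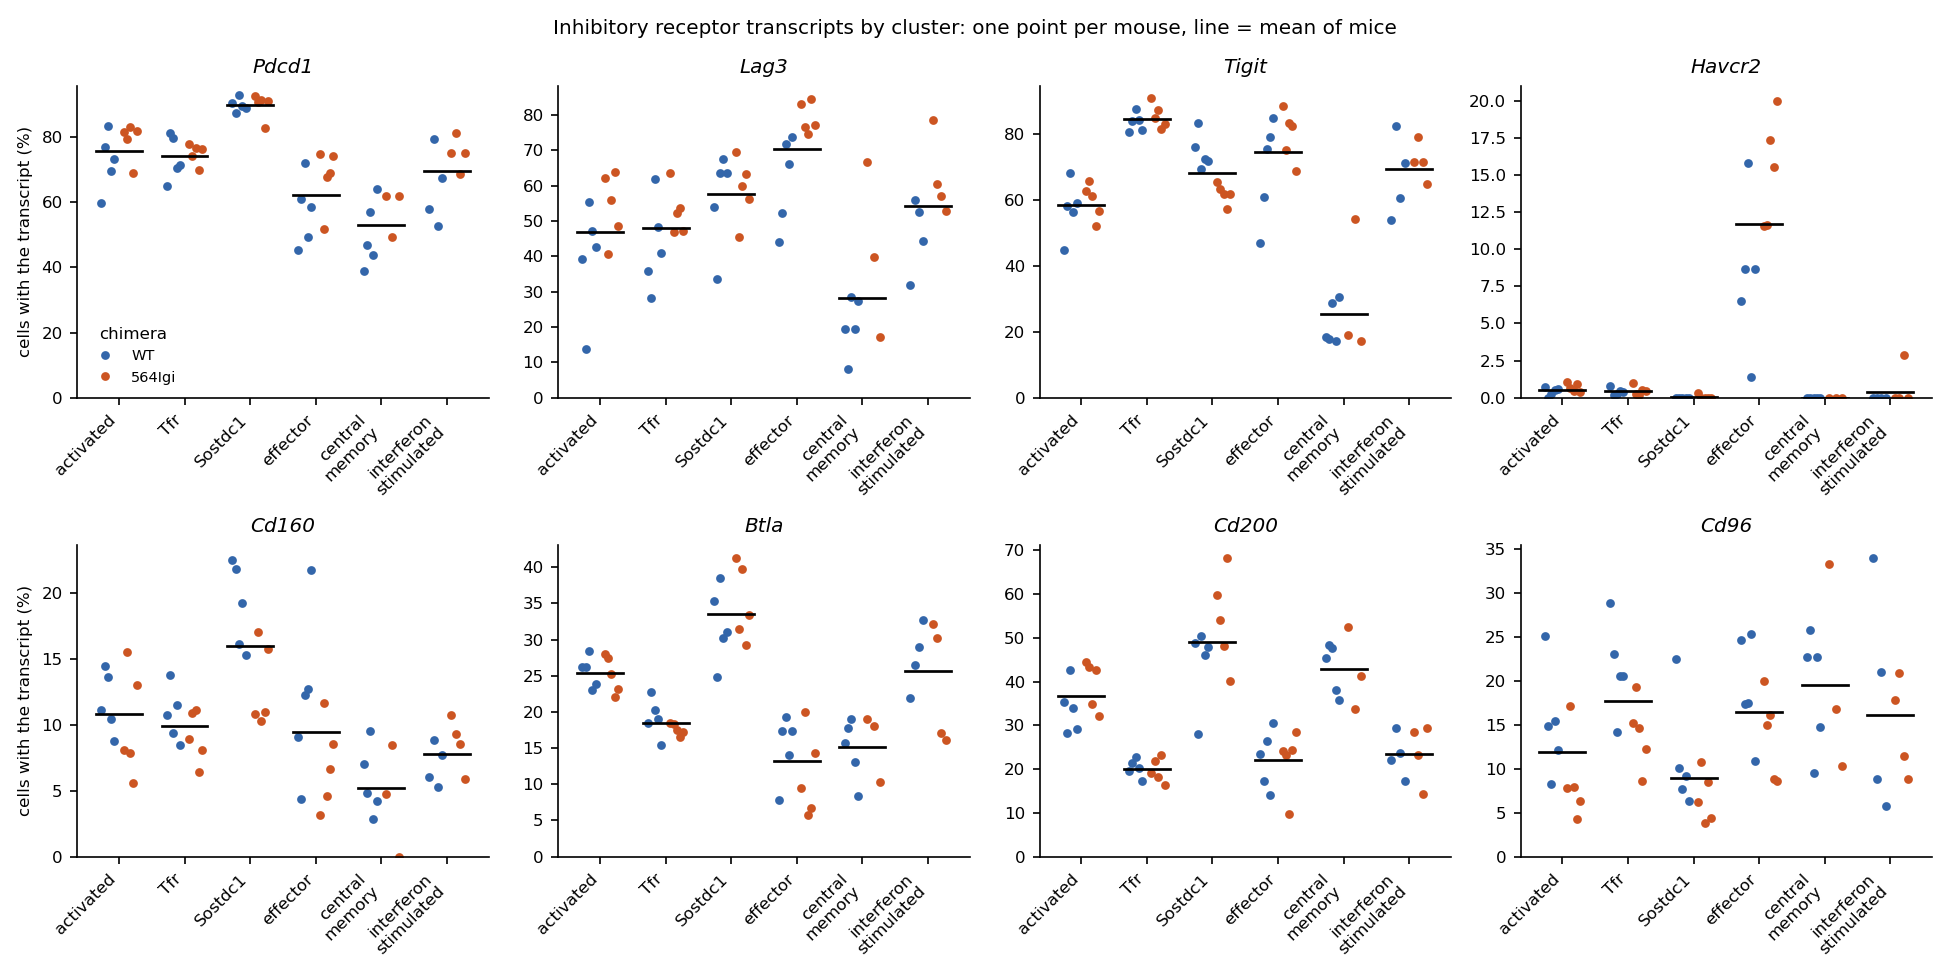
Percent of cells with each transcript (vertical axis, own scale per gene) in the 6 clusters, 1 point per mouse with at least 20 cells of the cluster, WT in blue and 564Igi in orange, with a line at the mean of mice. Tigit sits at 84.5% in Tfr cells against 58.4% in activated Tfh cells, Pdcd1 at 89.8% in Sostdc1 Tfh cells, and Havcr2 averages 11.7% in effector Tfh cells and under 1% in the other clusters.

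Genes with the most similar levels were sought over 56 means of mouse and cluster, among 8109 genes, with Pearson's r given as a description. The means share libraries and depth. Levels of Havcr2 followed Adgrg1 (r = 0.912), Ccl3 (0.903) and Gzmb (0.888), of which Ccl3 and Gzmb encode a chemokine and a cytotoxic protease. Levels of Lag3 followed Nab1 (0.807), Ifng (0.781) and Cd3e (0.779), those of Tigit followed Cd2 (0.878), Itm2c (0.833) and Ttc39c (0.825), and those of Pdcd1 followed Tnfaip8 (0.892) and Zap70 (0.864). Btla was most like Egln3 (0.840), Gpm6b (0.837) and Ccdc28b (0.835), Cd200 most like Marcksl1 (0.805), Dap (0.756) and Rnf19a (0.741), and Cd160 most like Slc22a15 (0.639), Cxcr5 (0.627) and Iscu (0.625). Cd96 was most like Cd200r1 (0.767), which encodes the receptor of CD200, followed by Pik3r1 (0.733) and Chfr (0.709).

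Members were also found together in single cells, described here within a cluster. Among activated Tfh cells, Cd200 was found in 43.1% of cells with Lag3 and 31.1% of cells without it, and in 48.1% of cells with Btla and 32.7% without, higher in 10 of 10 mice for both. Cd96 went the other way, in 8.22% of cells with Lag3 and 14.9% without, higher with Lag3 in 0 of 10 mice. Tigit was found in 62.5% of cells with Pdcd1 and 46.6% without, higher in 10 of 10 mice. Among Tfr cells, Tigit was found in 90.0% of cells with Lag3 and 79.7% without, again in 10 of 10 mice. Depth moved with some of these genes and its part was not tested. Activated Tfh cells with Btla had a median of 3942 UMIs against 3372 without, those with Lag3 3611 against 3423, and those with Pdcd1 3504 against 3495.

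The first comparison asked whether follicular T cells of the autoreactive chimeras carried these genes at other levels than those of the immunized WT chimeras. Lag3 was found in 37.7%, 23.6%, 58.5%, 48.5% and 44.7% of the cells of WT mice 11, 12, 14, 23 and 36. In 564Igi mice 13, 17, 21, 24 and 34 it was found in 64.5%, 44.3%, 56.1%, 60.2% and 49.5%. The 564Igi mice tended to be higher, but the groups overlapped, and mouse 12 lay lowest. The difference was 0.26 ± 0.10 (SE) on the log2 scale, with an adjusted p of 0.9997 in limma and an exact permutation p of 0.119 (two-sided).

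Cd96 was found in 26.5%, 19.4%, 10.9%, 17.4% and 14.8% of cells in the WT mice and in 11.8%, 17.6%, 10.4%, 6.4% and 8.5% in the 564Igi mice, in the same order. Most WT mice were higher, again with overlap. The difference was -0.08 ± 0.03 (SE, log2; adjusted p = 0.932, exact permutation p = 0.0714). No member was called between conditions at an adjusted p under 0.05 over all genes, in a comparison that called 0.0703% of 9959 genes and gave 318 an unadjusted p under 0.05. Lag3 and Cd96 were the members with an unadjusted p under 0.05, at 0.0119 and 0.00739. Levels were normalized within each condition by the authors, and that step cannot be told apart from the condition.

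The other members had smaller or less certain differences over all cells. In WT and 564Igi chimeras, Pdcd1 was found in 73.5% ± 7.68 and 77.7% ± 4.70 of cells, Tigit in 69.1% ± 5.87 and 70.5% ± 5.32, and Cd200 in 29.1% ± 3.81 and 32.3% ± 4.08. Btla was found in 22.9% ± 1.80 and 22.6% ± 1.94, and Cd160 in 11.7% ± 1.73 and 9.73% ± 2.78. Havcr2, in too few cells for the test across genes, was found in 0.514% ± 0.231 and 0.992% ± 0.341 of cells in the same order (exact permutation p = 0.0556).

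Within clusters limma called no member either, although 1 to 4 members had an unadjusted p under 0.05 in each cluster. So did 393 of 9859 genes in activated Tfh, 350 of 9994 in Tfr and 455 of 9885 in Sostdc1 Tfh cells. In effector, central memory and interferon stimulated Tfh cells 503 of 9637, 784 of 10351 and 396 of 9419 genes did. Without mouse 24, Lag3 was called in central memory Tfh cells (adjusted p = 0.0018), a fit that leaves 2 564Igi mice with 21 and 83 of these cells. The 3 effector markers were all higher in that cluster in 564Igi chimeras with all mice kept (median difference 0.58, log2), with Ccl5 called (0.31, adjusted p = 0.0188), and their part in the Lag3 value was not tested. These comparisons called 0.0406% of genes in activated Tfh, 0.0901% in Tfr, 0.0405% in Sostdc1 Tfh, 0.0623% in effector, 0.029% in central memory and 0.0106% in interferon stimulated Tfh cells. In activated Tfh cells Lag3 was found in 39.6% ± 15.7 of cells in WT chimeras and 54.2% ± 9.67 in 564Igi chimeras (adjusted p = 0.956, exact permutation p = 0.0873 for the log2 level). In Tfr cells Cd96 was found in 21.5% ± 5.32 and 14.04% ± 3.93 (adjusted p = 0.473, exact permutation p = 0.0317), and without mouse 14 the adjusted p of Cd96 was 0.0462. A test of whether the difference between conditions differed between Tfr and activated Tfh cells also called no member (3 at an unadjusted p under 0.05), with 0.0207% of genes called. Of the 9682 genes in that test, 752 had an unadjusted p under 0.05.

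In 3 clusters a member separated the groups without passing the test across genes. These cases were picked for their lack of overlap among all members and clusters, in the share of cells or the log2 level. The exact permutation p-values below are not adjusted for that choice. Tigit in Sostdc1 Tfh cells was found in 76.1%, 83.2%, 69.2%, 72.2% and 71.8% of cells in the WT mice and in 65.2%, 63.4%, 61.8%, 57.3% and 61.6% in the 564Igi mice. All WT mice lay above all 564Igi mice, and the exact permutation p was 0.00794, the smallest that 5 against 5 mice can give, while the adjusted p was 0.367. Lag3 in effector Tfh cells was found in 61.7% ± 12.97 of cells in WT chimeras and 79.2% ± 4.34 in 564Igi chimeras (exact permutation p = 0.00794 for the share, 0.0873 for the log2 level, adjusted p = 0.591). In interferon stimulated Tfh cells, with 4 mice per group, the log2 level of Lag3 was 0.55, 0.81, 0.84 and 0.71 in WT mice 11, 14, 23 and 36 and 1.56, 0.89, 0.96 and 0.85 in 564Igi mice 13, 17, 21 and 34. The levels did not overlap (exact permutation p = 0.0286, the smallest that 4 against 4 can give), the shares of cells did (p = 0.0571 in the same permutation test), and the adjusted p was 0.998. Havcr2 in effector Tfh cells was found in 8.22% ± 5.18 of cells in WT chimeras and 15.2% ± 3.65 in 564Igi chimeras (exact permutation p = 0.0476 for the share, adjusted p = 0.945). The effector cluster held 1.95% ± 0.944 of the cells in WT chimeras and 3.17% ± 1.71 in 564Igi chimeras, and the summed level of their 3 markers over all cells ran from 138 to 487 corrected counts per 100 cells in WT and from 190 to 1478 in 564Igi mice. The part of these shifts in the values over all cells was not tested. For the share of genes without overlap, 45 of 9959 genes (0.452%) had none over all cells. That share was not computed within any cluster, so the separations within clusters cannot be set against those of other genes.

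**Figure D2:**
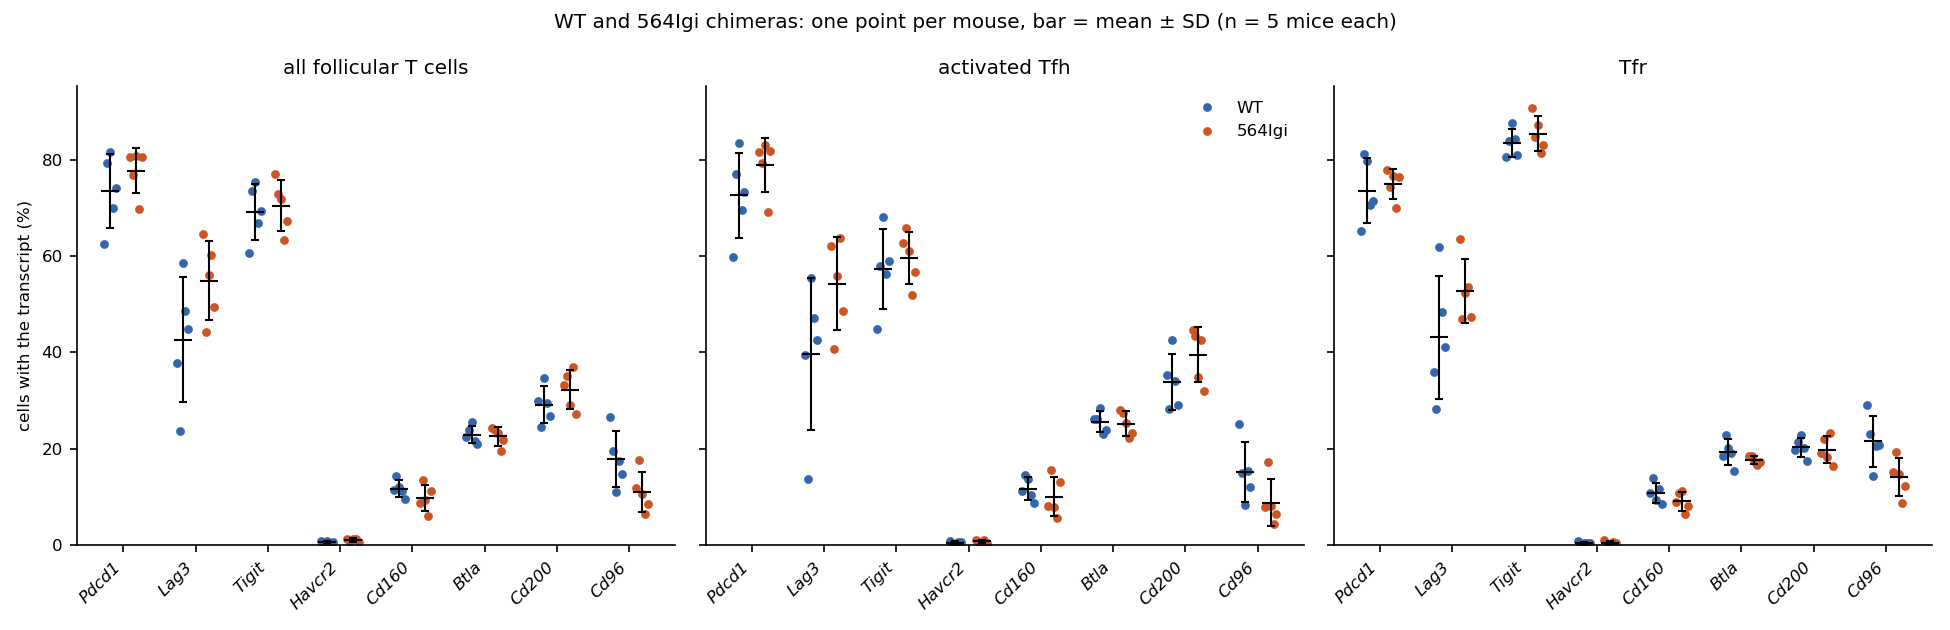
Percent of cells with each transcript (vertical axis) in WT (blue) and 564Igi (orange) chimeras over all follicular T cells, activated Tfh cells and Tfr cells, 1 point per mouse, with bars at the mean ± SD of 5 mice. Lag3 is the widest spread, from 23.6% to 64.5% over all cells, and the groups overlap for every member in these panels.

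The second comparison asked whether cells of expanded clones carried these genes at other levels than cells whose TCR was seen once. Within each mouse and cluster, cells of clones with 5 or more cells were set against singletons. Among activated Tfh cells (4877 expanded and 2416 singleton cells, 801 expanded clones, 10 mice), Pdcd1, Lag3 and Tigit rose and Cd96 fell, 4 of 7 members tested, where 8.68% of 9842 genes were called (2.05% higher and 6.62% lower). Of all genes tested, 27.6% had a difference above 0, and of the members 6 of 7, although 3 of these 6 differed by 0.01 or less.

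Pdcd1 was found in 80.8% ± 5.03 of expanded and 69.8% ± 12.2 of singleton cells. In WT mice 11, 12, 14, 23 and 36 the log2 level of Pdcd1 was higher in expanded cells by 0.44, 0.70, 0.13, 0.62 and 0.55, and in 564Igi mice 13, 17, 21, 24 and 34 by 0.35, 0.18, 0.14, 0.42 and 0.10. All 10 mice were higher, with a mean of 0.36 ± 0.05 (SE). The adjusted p was 4.2e-06 and the exact sign-flip permutation p was 0.00195, the smallest that 10 mice can give. With limma's default trend for differences, the adjusted p of Pdcd1 was 0.49, and without the trend option 0.00836.

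Lag3 was found in 50.9% ± 14.6 of expanded and 39.5% ± 15.6 of singleton activated Tfh cells. The log2 level of Lag3 was higher by 0.53, 0.01, 0.15, 0.52 and 0.20 in the WT mice and by 0.24, 0.37, 0.12, 0.32 and 0.04 in the 564Igi mice. All 10 were above 0, with mice 12 and 34 near it. The mean was 0.25 ± 0.04 (SE; adjusted p = 1.81e-05, exact sign-flip permutation p = 0.00195). Tigit rose from 53.9% ± 10.1 to 62.7% ± 5.13 of cells, by 0.20 ± 0.03 (SE, log2), in 10 of 10 mice (adjusted p = 8.7e-05, exact sign-flip permutation p = 0.00195). Under the default trend Lag3 and Tigit kept adjusted p of 0.0371 and 0.025.

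Cd96 fell in expanded clones. It was found in 34.4%, 35.5%, 11.6%, 22.3% and 17.9% of singleton activated Tfh cells in the WT mice and in 18.3%, 9.53%, 7.55%, 10.7% and 5.93% of expanded cells, mouse by mouse. In the 564Igi mice the shares were 10.4%, 24.9%, 9.77%, 7.14% and 11.2% in singletons and 7.05%, 12.4%, 6.84%, 3.52% and 4.52% in expanded cells. Every mouse was lower, and the log2 level fell by 0.12 (SE 0.02; adjusted p = 4.76e-05, exact sign-flip permutation p = 0.00195, adjusted p = 0.0326 under the default trend). Cd160, Btla and Cd200 differed by 0.01 or less on the log2 scale with adjusted p of 0.773, 0.935 and 0.846.

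The change ran through clone sizes of 1, 2 to 4, 5 to 9 and 10 or more cells. Among activated Tfh cells Pdcd1 was found in 69.8%, 75.4%, 78.2% and 81.6% of cells in these classes, Lag3 in 39.5%, 43.7%, 49.8% and 50.8%, Tigit in 53.9%, 55.4%, 60.0% and 63.5%, and Cd96 in 18.5%, 14.8%, 12.4% and 7.5%, as means of mice. Depth differed between the classes, with a median of 3513 UMIs in expanded and 3921 in singleton cells on average over mice, and expanded cells deeper in 2 of 10 mice. Activated Tfh cells with Cd96 were deeper than those without it in 10 of 10 mice (3947 against 3449 UMIs). Among cells with 3000 to 4500 UMIs, the same 4 members were called, with 149 genes in all. The central memory marker Ccr7 also fell in expanded activated cells, by 0.06 (log2), and the authors' heat shock score was higher by 0.0295 in 9 of 10 mice. Their part in these results was not tested.

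Among Tfr cells (3953 expanded and 2972 singleton cells, 664 expanded clones, 10 mice), 3.18% of 9971 genes were called, and 0.842% rose and 2.34% fell. Pdcd1 and Tigit rose while Cd96 and Cd200 fell. Pdcd1 was found in 78.6% ± 3.94 of expanded and 71.0% ± 7.46 of singleton cells, a log2 rise of 0.25 ± 0.03 (SE) in 10 of 10 mice (adjusted p = 7.11e-06, exact sign-flip permutation p = 0.00195). Tigit was found in 88.5% ± 2.75 and 82.2% ± 5.16, a rise of 0.26 ± 0.04 (SE) in 9 of 10 mice, mouse 34 being the exception (adjusted p = 0.000215, exact sign-flip permutation p = 0.00586). Cd96 was found in 14.9% ± 5.51 and 21.9% ± 5.78 and fell by 0.08 (log2, SE 0.01) in 10 of 10 mice (adjusted p = 7.17e-06, exact sign-flip permutation p = 0.00195). Under the default trend Pdcd1 and Cd96 kept adjusted p of 0.037 and 0.0272, and Tigit had 0.0666. Without the trend option Tigit had 0.0309. When each clone counted once, Tigit in Tfr cells differed by 0.07 with an adjusted p of 0.556. Among cells with 3000 to 4500 UMIs, Cd96 had an adjusted p of 0.0693. Depth again differed, with average medians of 3413.5 UMIs in expanded and 3632.75 in singleton cells, expanded deeper in 1 of 10 mice. Tfr cells with Cd200 had 3983 UMIs against 3357 without, and those with Cd96 3772.5 against 3406. Those with Pdcd1 had 3461 against 3473 and those with Tigit 3475 against 3452. Foxp3 and Il2ra fell in expanded Tfr cells by 0.10 and 0.07 (log2), Ikzf2 rose by 0.19 and Ctla4 was not called. The part of these was not tested.

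Cd200 in Tfr cells depended on how clones were weighed. It was lower in expanded cells by 0.05 (log2) in 9 of 10 mice, with an adjusted p of 0.0242, which was 0.0785 under the default trend and 0.0683 without the trend option, and the call was lost without mouse 11, 12, 13 or 21. When each clone counted once, it was higher by 0.09 (adjusted p = 0.0023), as was Btla by 0.06 (0.0099). Lag3 in Tfr cells was found in 50.7% ± 10.3 of expanded and 45.8% ± 14.1 of singleton cells, with a difference of 0.08 (SE 0.03, log2; adjusted p = 0.174). Without mouse 24 or 34 the adjusted p of Lag3 there was 0.0330 or 0.0412. Among Sostdc1 Tfh cells, in 7 mice with enough cells, no member was called (1 at an unadjusted p under 0.05) and 0.0314% of genes were. An unadjusted p under 0.05 was reached there by 619 of 9559 genes. Over all clusters together, where 22.7% of genes were called (4.09% higher and 18.6% lower), Pdcd1, Lag3 and Tigit rose and Cd96 fell, as in the activated cells. Btla rose there by 0.03 (adjusted p = 0.0415, and 0.0656 under the default trend), a call lost without mouse 11, 14, 23, 21, 24 or 34.

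**Figure D3:**
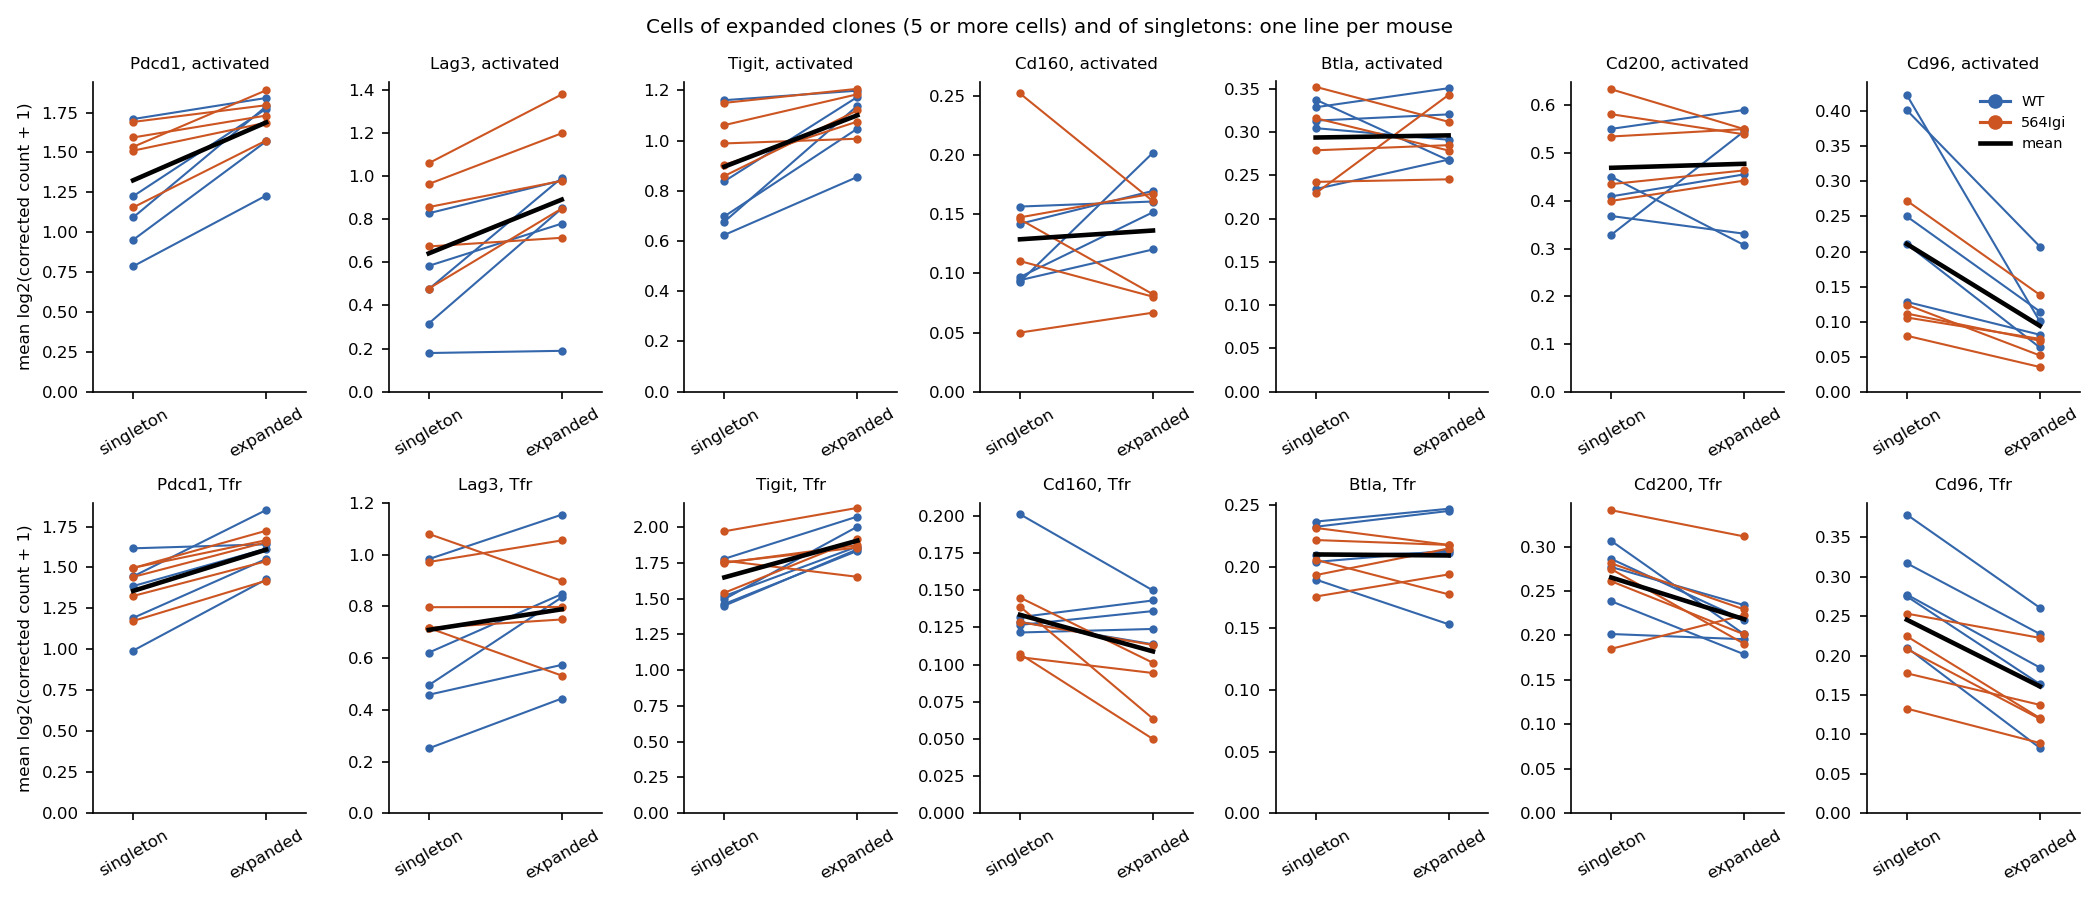
Mean log2(corrected count + 1) (vertical axis, own scale per panel) in singleton cells and cells of expanded clones, 1 line per mouse (WT blue, 564Igi orange) and the mean in black, for 7 members in activated Tfh (top) and Tfr cells (bottom). The Pdcd1 lines rise in 10 of 10 mice in both rows and the Cd96 lines fall in 10 of 10.

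Whether the difference with clone size itself differed between conditions was tested next. In activated Tfh cells no gene was called (0% of 9842, with 704 at an unadjusted p under 0.05, and 1 called under the default trend), but without mouse 14 Pdcd1 and Cd96 were (adjusted p = 0.0379 for both). In Tfr cells 0.11% of 9971 genes were called, Lag3 among them. The log2 level of Lag3 was higher in expanded Tfr cells by 0.12, 0.19, 0.17, 0.23 and 0.34 in WT mice 11, 12, 14, 23 and 36, and differed by 0.08, 0.03, 0.00, -0.18 and -0.18 in 564Igi mice 13, 17, 21, 24 and 34. The groups did not overlap, and the difference between them was -0.26 ± 0.05 (SE; adjusted p = 0.0131, exact permutation p = 0.00794). This call was not firm. Its adjusted p was 0.404 under the default trend, it was lost when clones of 2 or more cells counted as expanded, and it held in 7 of 10 fits that left out a mouse and not in those without mouse 23, 34 or 36, where the adjusted p ran from 0.00317 to 0.0832 over the 10. Tigit was called as well without mouse 24 (0.018).

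The third comparison asked whether cells of 1 clone were alike in a receptor. For each cell of a clone in a cluster, the share of its sister cells with a transcript was taken when the cell had the transcript and when it did not. The difference lies near 0 where clones do not differ. Among activated Tfh cells (1133 clones of 2 or more cells, 5807 cells, 65 to 168 clones per mouse), Lag3 was found in 63.8% ± 12.1 of the sisters of cells with Lag3 and in 36.6% ± 13.1 of the sisters of cells without it. The difference in Lag3 was 26.8, 21.3, 28.9, 33.1 and 32.0 points in WT mice 11, 12, 14, 23 and 36 and 23.2, 38.6, 34.2, 12.3 and 22.3 points in 564Igi mice 13, 17, 21, 24 and 34. Mouse 24 was lowest and mouse 17 highest, both 564Igi, and the conditions overlapped.

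The mean for Lag3 was 27.3 ± 1.75 points (SE; adjusted p = 1.16e-10, exact sign-flip permutation p = 0.00195, adjusted p = 1.59e-09 under the default trend). That placed Lag3 at rank 2 of 6827 genes tested, after Gm20400 with 37.3 points. Of the 7 members tested, 5 were called, where 3.46% of genes were called. The others were Pdcd1 with 11.2 points (adjusted p = 5.91e-06), Cd96 with 9.53 (9.58e-05), Cd200 with 7.71 (0.00182) and Tigit with 6.93 (0.000576), above 0 in 10, 9, 8 and 9 of 10 mice. Cd160 had 5.18 points (adjusted p = 0.058, and 0.0225 without mouse 34) and Btla -0.175 (0.982). The median over all genes tested was 0.318 points.

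Among Tfr cells (1062 clones, 5082 cells) the sisters were also alike in Lag3, by 16.5 ± 1.59 points (SE), from 7.64 to 25.5 over the 10 mice (adjusted p = 5.24e-07, exact sign-flip permutation p = 0.00195). Pdcd1 had 10.7 ± 1.33 points (adjusted p = 2.03e-05), above 0 in 10 of 10 mice. These 2 of 7 members were called, where 1.1% of 6935 genes were. Tigit, Cd200 and Cd96 had 4.82, 4.91 and 4.31 points with adjusted p of 0.15, 0.203 and 0.153, and Tigit was called without mouse 24 (0.00673). Among cells with 3000 to 4500 UMIs, only Lag3 of the members was called in both clusters. When each clone counted once, Pdcd1, Lag3 and Cd96 were called in activated Tfh cells.

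**Figure D4:**
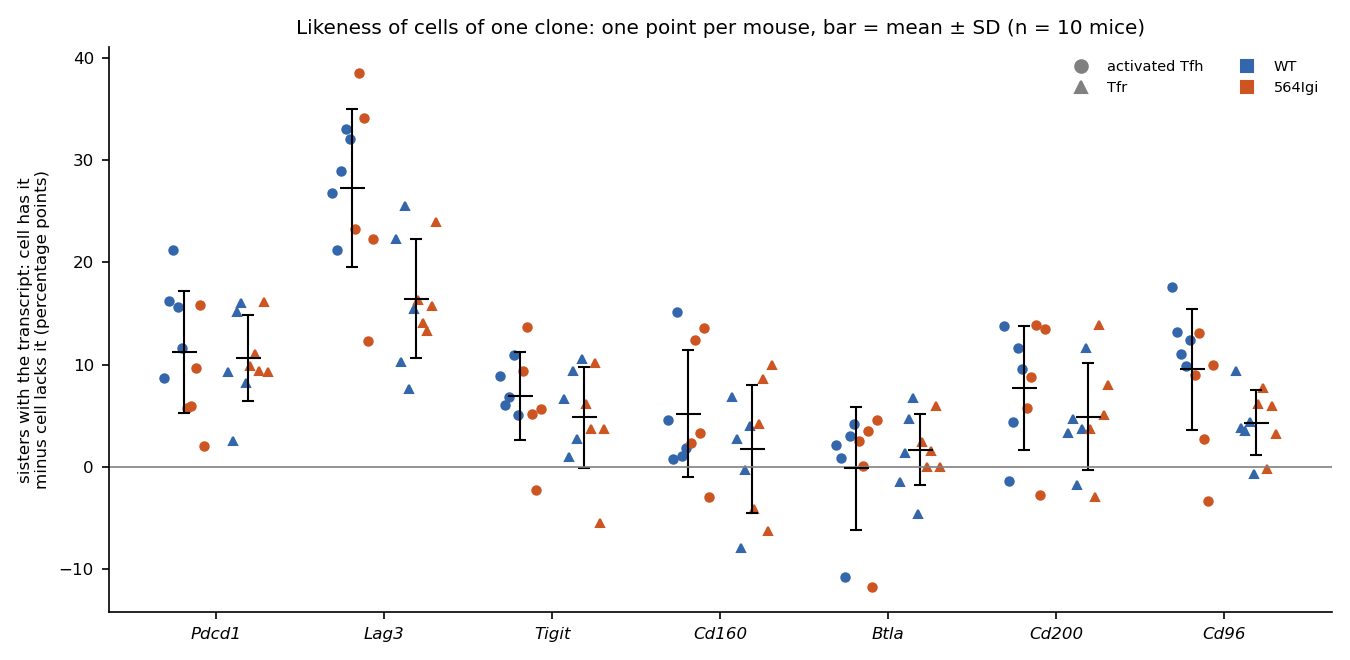
Difference in the percent of sister cells with a transcript between cells that have it and cells that lack it (vertical axis, percentage points), 1 point per mouse (WT blue, 564Igi orange), circles for activated Tfh and triangles for Tfr cells, with bars at the mean ± SD of 10 mice. Of the members, Lag3 stands highest in both clusters, at 27.3 and 16.5 points, and Btla in activated Tfh cells lies at -0.175.

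The large clones show what this meant cell by cell. In 39 clones with at least 20 activated Tfh cells, the share of cells with Lag3 ran from 4.17% to 100%, with a median of 50%. In 25 of the 39, the 95% Wilson interval of the clone left out the share of all activated Tfh cells of its mouse, 14 above and 11 below. These intervals cover counting error only, and the mouse's share includes the clone. In mouse 23 (WT), the largest clone had Lag3 in 34 of 117 cells (29.1%, 21.6% to 37.8%), the next in 67 of 75 (89.3%, 80.3% to 94.5%), the next in 61 of 69 (88.4%, 78.8% to 94.0%) and the fifth in 1 of 24 (4.17%, 0.739% to 20.2%). In mouse 21 (564Igi), 1 clone had Lag3 in 22 of 22 cells and another in 6 of 35 (17.1%, 8.10% to 32.7%). In mouse 12 (WT), where Lag3 was low over all cells, the 4 large clones had it in 4.76% to 10.3% of cells.

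The clones whose sequences are given above spanned the same range. Lag3 was found in 69.8% of 43 cells of the clone of mouse 11, 9.38% of 96 in mouse 12, 40.9% of 22 in mouse 14, 29.1% of 117 in mouse 23 and 19.6% of 46 in mouse 36. In the 564Igi mice it was found in 86.4% of 22 cells in mouse 13, 82.1% of 78 in mouse 17, 61.9% of 42 in mouse 21, 46.2% of 26 in mouse 24 and 7.69% of 65 in mouse 34. High and low clones occurred in both conditions. The clones of mouse 12 and mouse 24, from different conditions, listed the same V genes and CDR3 sequences of equal length, which differed at 2 of 45 positions in the beta chain and 1 of 42 in the alpha chain. Their Lag3 shares were 9.38% (5.01% to 16.9%) and 46.2% (28.8% to 64.5%). The mice differed in the same direction. Among all activated Tfh cells in clones of 2 or more cells, Lag3 was found in 13.5% in mouse 12 and 69.3% in mouse 24. Each clone lay below the share of its mouse, and a difference between the clones beyond that of the mice was not tested. This pair was singled out after the values were seen.

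Other members varied less between large clones. Pdcd1 ran from 52.2% to 100% (median 86.1%) over the 39 activated clones, Tigit from 12.1% to 90.9%, Cd200 from 9.09% to 69.6% and Cd96 from 0% to 20%. The clone's interval left out the mouse's share in 16 clones for Pdcd1, 15 of them above, in 17 for Cd200, in 14 for Tigit, in 8 for Cd160 and in 7 for Cd96, all below. Havcr2 exceeded 10% in 1 clone, in 4 of 20 cells in mouse 36, a clone that had Lag3 in 90.0% of them. In 27 clones with at least 20 Tfr cells, in 8 mice, Lag3 ran from 9.52% to 86.4% (median 42.9%), and 13 intervals left out the mouse's share.

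**Figure D5:**
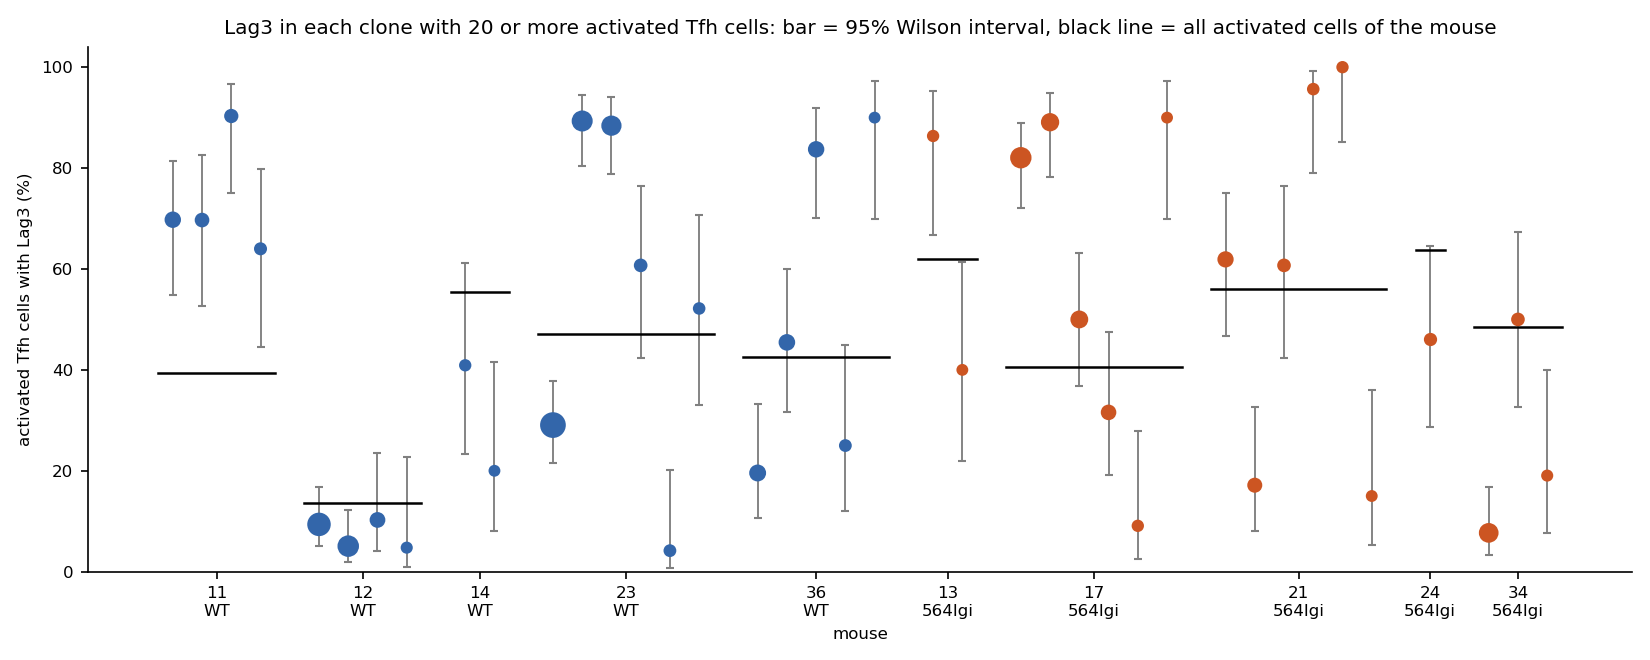
Percent of activated Tfh cells with Lag3 (vertical axis) in each clone with 20 or more such cells, 39 clones grouped by mouse, with 95% Wilson intervals, point area in proportion to the clone's cells, and a black line at the share of all activated Tfh cells of that mouse. Clones of 1 mouse lie on both sides of the line, as in mouse 23, from 4.17% to 89.3%.

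The wider pathway was described by lists of genes. Of 12 ligands and binding partners, 9 were in the matrix and 8 were tested. Cd274, encoding PD-L1, was found in 7.53% ± 1.36 of all follicular T cells, Tnfrsf14 in 6.02% ± 1.11 and Pvr, encoding CD155, in 4.41% ± 0.908, while Lgals9, a ligand of TIM-3, was found in 39.5% ± 3.82. Between conditions over all cells, 0 genes were called in each list of ligands, activating receptors, other inhibitory receptors, signalling partners and regulators (8, 6, 11, 10 and 15 tested, of which 2, 2, 2, 0 and 1 had an unadjusted p under 0.05). In effector Tfh cells the regulator Tcf7, a factor of early and memory-like T cells, fell by 0.34 (log2, adjusted p = 0.0343) in 564Igi chimeras.

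With clone size in activated Tfh cells, 5 of 9 other inhibitory receptors rose and none fell, where 2.05% of all genes rose and 6.62% fell. They were Cd5 (log2 difference 0.22), a restraint on TCR signalling, Vsir (0.09), encoding VISTA, Nt5e (0.07), which makes adenosine, Ctla4 (0.07) and Cd101 (0.04). Of 14 regulators 6 rose and none fell, among them Maf (0.19), Tox (0.14) and Ikzf2 (0.12). Maf promotes the Tfh program, and Tox is linked to sustained inhibitory receptor expression. Of 10 signalling partners Ptpn11, encoding SHP-2, rose by 0.22, and Grb2 and Pag1 fell by 0.04 each. Of 6 activating receptors Icos, the costimulator of follicular T cells, rose by 0.20, while Cd226, the activating receptor for CD155, fell by 0.06 and Slamf6 by 0.08. Of 8 ligands Hmgb1 rose by 0.16 and Lgals9 fell by 0.12.

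In Tfr cells 0 of 11 other inhibitory receptors were called by limma (3 at an unadjusted p under 0.05), and the difference from activated Tfh cells was not tested. Of all 9971 genes tested for clone size in Tfr cells, 1914 had an unadjusted p under 0.05. Of these 9971 genes, 3.18% were called (0.842% higher and 2.34% lower). Of 14 regulators 3 rose, Ikzf2 (0.19), encoding Helios, Maf (0.10) and Prdm1 (0.03). Icos rose by 0.11, and Cd28, Slamf6 and Cd226 fell by 0.13, 0.09 and 0.04. The adaptor Sh2d1a rose by 0.11, and 0 of 8 ligands were called (2 at an unadjusted p under 0.05).

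Sister cells were alike in some of these genes as well. In activated Tfh cells, where 3.46% of 6827 genes were called, Cd5 had 13.7 points and Sh2d1a 13.8. Called there were 3 of 7 other inhibitory receptors (Cd5, Ctla4 and Nt5e), 6 of 10 regulators, and Lgals3 (9.24 points) and Pdcd1lg2 (5.61) among 8 ligands. In Tfr cells, where 1.1% of 6935 genes were called, Cd5 (6.43 points) and Ptpn11 (8.14) were among them. None of these listed genes reached the 27.3 and 16.5 points of Lag3. The calls rest on the trend over the gene's mean level, and values under the default trend are not given.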

How the data were processed

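The authors aligned 10x 5′ libraries to GRCm38/mm10 with Cell Ranger 4.0.0 and filtered and clustered cells in Seurat 3.1.4. As deposited by the authors, the matrix is on a natural log scale, with 1 added to sctransform's corrected counts before the log, and each condition was normalized on its own; the deposited cell table gives raw UMI counts per cell, clusters and the authors' heat shock score. The natural log was undone to whole corrected counts. Levels are each mouse's mean of log2(corrected count + 1), a scale that understates changes of low genes, and shares are cells with at least 1 corrected count. No doublet caller was run.

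Mice were the replicates, with at least 20 cells per cluster or class. The SE and p-values of limma rest on a spread between mice that was moderated across genes. Such an SE can be smaller than that of the gene's own values. For Lag3 between conditions over all cells, limma's unadjusted p was 0.0119 and the exact permutation p was 0.119. Genes detected in 1% of cells or more, in 5 or more mice, entered limma 3.58.1 (R 4.3.3, trend option on). Between conditions the number of mice asked for was that of the smaller group, thus 3 in central memory and 4 in interferon stimulated Tfh cells. A gene was called when its p, adjusted by Benjamini-Hochberg over all genes tested, was under 0.05; sister cells were tested over genes in at least 5% of cells. Clone and sister fits used each mouse's difference, so the mouse is the block. For these fits and for Tfr against activated Tfh cells, limma's default trend runs over the mean difference; the trend was instead run over the gene's mean level. This was decided after the members' results under the default had been seen and it raised most counts of calls. Default values are given beside the members' calls it changes, but not for the listed pathway genes. Single values were tested by exact permutation over 252 assignments or 1024 sign flips of mice (two-sided; smallest p 0.00794 and 0.00195).

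Clone sizes were counted over all cells of a mouse with a TCR. The TCR table lists 2 CDR3s per cell, and 3942 cells list 2 alpha V or J genes, so part of their chains may be missing; 1 alternative left them out. Described genes were the 8 members in each comparison, listed pathway genes (at most 6 with the largest absolute difference per list), and the 3 most correlated genes per member, except that 2 genes these rules name are not reported here. Members and lists were chosen with earlier results of these data known. Figures were drawn with matplotlib 3.10.9 under Python 3.11.15.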

Additional observations from a re-analysis of the deposited data

Results flagged for a closer look

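Of 78 groups of 5 or 10 values of the members that were looked at, 3 held a mouse far from the others by Dixon's test, and chance alone gives about 1 in 20. Pdcd1 was found in 69.06% of the activated Tfh cells of 564Igi mouse 24, against 79.3% to 83.0% in the other 4 mice. Cd96 was found in 17.13% of the activated Tfh cells of 564Igi mouse 17, against 4.32% to 7.96% in the others. The expanded minus singleton difference of Cd200 in activated Tfh cells was 0.2172 (log2) in WT mouse 11, against -0.14 to 0.05 in the other 9 mice.

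The difference between conditions in the clone size difference of Lag3 in Tfr cells, -0.2591 on the log2 scale (adjusted p = 0.0131), was past the threshold, with the limits given beside it above.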

How the results depend on the processing

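Calls between conditions numbered at most 68 genes under the alternatives tried, and no member was called in the settings that kept all mice. At an adjusted p under 0.01 with an absolute difference above 0.2, the genes called between conditions were 1 over all cells, 1 in activated Tfh, 2 in Tfr, 2 in Sostdc1, 1 in effector and 0 in central memory Tfh cells, and 0 for Tfr against activated Tfh cells. Without the filter on low genes they were 2, 2, 3, 1, 1 and 0 in the same order of clusters. Without the trend option they were 1 over all cells, 0 in activated Tfh, 0 in Tfr and 1 in Sostdc1 cells. With labelled sex as a covariate they were 13 over all cells, 21 in Tfr and 7 in Sostdc1 cells. With CPM 2 genes were called in Sostdc1 cells, with cells of 3000 to 4500 UMIs 2 over all cells, without the libraries of mice 34 and 36 15 over all cells, and with a minimum of 10 cells 0 in central memory cells. Btla in activated Tfh cells, close to 0 in each case, turned to -0.013 with CPM and -0.0014 with labelled sex.

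The trend option mattered most for clone size and sister cells, and the choice reported was made after the members' results under the default had been seen. With the default trend over the mean difference, 152 genes and 2 members were called for clone size in Tfr cells, 0 genes in Sostdc1 cells, 0 genes for Tfr against activated Tfh cells between conditions, 1 gene and 0 members for clone size by condition in Tfr cells and 1 gene in activated Tfh cells. Sister cells then gave 147 genes in activated Tfh and 37 in Tfr cells. Without the trend option clone size gave 205 genes in Tfr and 0 in Sostdc1 cells, and the members called in activated Tfh and Tfr cells were those reported, except Cd200 in Tfr cells.

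For clone size, a stricter threshold (adjusted p under 0.01, difference above 0.2) called 22 genes in activated Tfh cells, 10 genes and 2 members in Tfr, 1 gene in Sostdc1 cells, 18 genes and 2 members over all clusters, and 1 gene and 0 members by condition in Tfr cells. Cells with 3000 to 4500 UMIs gave 149 genes in activated Tfh cells and 28 genes and 2 members in Tfr cells. That band was not run in Sostdc1 cells, where too few mice remained. Without the filter on low genes 517, 103 and 0 genes were called in activated Tfh, Tfr and Sostdc1 cells. CPM gave 195 in Tfr and 0 in Sostdc1 cells. Each clone counted once gave 370 in activated Tfh and 0 in Sostdc1 cells, and turned Cd200 to 0.093 and Btla to 0.064 in Tfr cells. Expanded clones of 10 or more cells gave 205 genes in Tfr cells. Expanded clones of 2 or more gave 3 genes and 0 members by condition in Tfr cells. Without the mouse as a replicate block, 19 genes and 0 members were called in activated Tfh, 12 genes and 0 members in Tfr and 0 genes in Sostdc1 cells, since the spread between mice then entered the error. The fits between conditions have no block because the labels pair no mouse of 1 group with a mouse of the other.

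Members close to 0 changed sign. With each clone counted once, Btla, Cd160 and Cd200 in activated Tfh cells gave -0.013, -0.0014 and -0.0042. Cd200 in activated Tfh cells gave -0.0028 with clones of 10 or more cells and -0.0084 without cells listing 2 alpha genes. Btla in Tfr cells gave 0.052 with CPM, 0.0065 with clones of 10 or more cells, 0.0029 with clones of 2 or more, 0.0048 without cells listing 2 alpha genes and 0.0076 without the largest clone. Btla in activated Tfh cells gave -0.0060 without cells listing 2 alpha genes. By condition in Tfr cells, Btla gave 0.0017 with clones of 2 or more and 0.0081 without the largest clone.

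For sister cells, the 3000 to 4500 UMI band gave 39 genes and 1 member in activated Tfh and 10 genes and 1 member in Tfr cells. Each clone counted once gave 67 genes and 3 members in activated Tfh and 30 genes in Tfr cells. Btla gave 0.71 and -1.25 points in activated Tfh and Tfr cells in the band, and 0.55 in activated Tfh cells without cells listing 2 alpha genes.

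Leaving out 1 mouse at a time gave 3 to 26 genes between conditions over all cells, 1 to 19 in activated Tfh, 5 to 27 in Tfr (0 to 1 member, Cd96 without mouse 14), 2 to 6 in Sostdc1, 1 to 13 in effector, 0 to 68 in central memory (0 to 1 member, Lag3 without mouse 24) and 1 to 4 in interferon stimulated cells, and 1 to 38 for Tfr against activated Tfh cells. Clone size gave 192 to 355 genes in Tfr and 0 to 4 in Sostdc1 cells, and by condition 1 to 18 genes and 0 to 2 members in Tfr and 0 to 15 genes and 0 to 2 members in activated Tfh cells (Pdcd1 and Cd96 without mouse 14). Between conditions Btla ran from -0.0030 to 0.010 over all cells, -0.0080 to 0.011 in activated Tfh and -0.020 to 0.0019 in Tfr cells, and Cd200 from -0.010 to 0.018 in Tfr cells. With clone size Btla ran from -0.0099 to 0.011 in activated Tfh and -0.0033 to 0.0031 in Tfr cells, Cd160 from -0.0039 to 0.018 and Cd200 from -0.015 to 0.025 in activated Tfh cells, and Btla by condition from -0.0099 to 0.0058 in Tfr cells. Btla in sisters of activated Tfh cells ran from -0.70 to 1.11 points. Where a cause is not given, the cause was not tested.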
